A study of Mus musculus with 6 samples.

Results

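Transcripts of the TAM receptor system were compared between wild-type and Carmil3 knockout cells of 4T1, a line of mouse mammary tumour cells. The 5 genes were chosen by name: the receptors Axl, Tyro3 and Mertk and the ligands Gas6 and Pros1. They were matched by Ensembl gene identifier among the 23644 genes of the deposited table. Values are given for 4 of the 5; Gas6 is not analysed here. The 2 groups were wild-type control 4T1 cells (3 libraries) and Carmil3 knockout 4T1 cells (3 libraries). All cells were grown in DMEM with serum and antibiotics, and the knockout cells, per the labels, are clones grown from single cells. The labels give neither the number of clones nor how the deletion was made, so the loss of Carmil3 and the clonal origin of the knockout cells cannot be told apart. Nor do the labels tie the libraries to separate cultures, and the p-values measure only the spread between these libraries. Expression was measured by RNA sequencing as FPKM, a level scaled by exon length and library size.

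TAM receptors are receptor tyrosine kinases whose ligands, Gas6 and protein S (the product of Pros1), carry a domain that is gamma-carboxylated with the help of vitamin K and binds phosphatidylserine on apoptotic cells and other membranes. Gas6 can activate each of the receptors, whereas protein S is known as a ligand of Tyro3 and Mertk. In macrophages and dendritic cells the pathway drives the uptake of dying cells and dampens innate immune signalling, and in carcinoma cells Axl is known for its links to invasion, mesenchymal traits and drug resistance. Carmil3 belongs to a family of proteins that bind actin capping protein.

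Promoters of the 3 genes that changed are shown here, because Axl and Pros1 rose while Tyro3 fell. Each run is 5′ to 3′ on the strand of the gene, covers 250 bases before and 50 bases from the RefSeq start, and is from build GRCm38.p6. The Axl window is chr7:25788684-25788983 (minus strand), the Tyro3 window chr2:119799264-119799563 (plus strand) and the Pros1 window chr16:62854057-62854356 (plus strand). The Tyro3 window lies inside the gene as annotated for the levels below, which begins at 119797733, so its RefSeq start is a different one. Capitals mark short motifs found on either strand and defined after the runs.
Axl: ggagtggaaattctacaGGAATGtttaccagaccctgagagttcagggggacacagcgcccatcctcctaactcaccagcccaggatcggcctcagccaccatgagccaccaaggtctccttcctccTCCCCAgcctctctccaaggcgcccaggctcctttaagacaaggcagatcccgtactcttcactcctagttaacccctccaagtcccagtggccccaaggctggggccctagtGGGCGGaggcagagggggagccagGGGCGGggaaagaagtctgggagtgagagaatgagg
Tyro3: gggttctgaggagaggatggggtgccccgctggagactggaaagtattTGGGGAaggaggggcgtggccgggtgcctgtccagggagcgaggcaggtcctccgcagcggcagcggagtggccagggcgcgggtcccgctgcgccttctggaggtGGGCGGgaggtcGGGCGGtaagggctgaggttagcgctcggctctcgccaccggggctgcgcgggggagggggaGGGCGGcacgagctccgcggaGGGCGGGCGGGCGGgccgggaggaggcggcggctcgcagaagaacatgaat
Pros1: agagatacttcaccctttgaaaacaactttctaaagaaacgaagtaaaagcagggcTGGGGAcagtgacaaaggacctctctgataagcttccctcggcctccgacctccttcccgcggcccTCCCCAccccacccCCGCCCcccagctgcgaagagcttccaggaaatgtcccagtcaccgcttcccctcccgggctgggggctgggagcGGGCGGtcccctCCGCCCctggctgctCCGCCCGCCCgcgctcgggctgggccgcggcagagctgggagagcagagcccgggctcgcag
All 4 analysed genes had a RefSeq promoter. The letters searched were GGGCGG for the factor Sp1, TGANTCA for AP-1 (N is any base), CATTCC for TEAD, ACGTG for HIF, CAGGTG for ZEB and TGGGGA for MZF1. The Sp1 letters occurred 2 times in the Axl window, 6 times in that of Tyro3, 5 times in that of Pros1 and 4 times in that of Mertk, and 35.7% of 32851 promoter windows of the same length hold them. Copies overlap in the Tyro3 and Pros1 runs. The TEAD letters occurred once, in the Axl window, 233 bases before the start, and 14.7% of windows hold them. The MZF1 letters were in all 4 windows, against 25.5% of all windows. The AP-1, HIF and ZEB letters were in none of the 4 windows; 7.81%, 19.6% and 20.2% of all windows hold them. GC content was 60.3% for Axl, 66.0% for Mertk, 66.7% for Pros1 and 73.3% for Tyro3, where the median window has 52.7%. The Axl window held 6 CpG dinucleotides, that of Mertk 14, that of Pros1 21 and that of Tyro3 31. These matches describe letters only; the data measure RNA and not the binding of any factor.

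Library depth, read from the spacing of the FPKM values, lay between 17779131 and 19046816 reads. Reads worked back from the FPKM values of all genes summed to 108.7% to 109.1% of this depth. The depth or the reads of some genes are therefore approximate, and which was not tested. With the annotated exon lengths the values of the 4 genes correspond to whole reads in every library: 13112 to 24958 reads for Axl, 483 to 841 for Tyro3, 193 to 256 for Mertk and 319 to 932 for Pros1. Carmil3 itself was listed at 0.0117 to 0.0360 FPKM in control and 0 to 0.0241 FPKM in knockout libraries, too low to check the labels. On the second principal component, with 11.8% of the variance, knockout replicate 3 scored -15.5, whereas knockout replicates 1 and 2 scored 6.73 and 9.56. The epithelial markers of mammary tumour cells were expressed, with Krt8 at 470.3 FPKM in control cells. Of these markers 10 of 10 were lower in knockout cells (limma, adjusted p under 0.05), against 18.7% of the 11171 genes tested. The sum of these markers ran from 1059 to 1162 FPKM in control and from 430.5 to 474.9 FPKM in knockout libraries. Since Mertk and Axl are also genes of macrophages, markers of that cell type were read: 8 of the 11 listed were under 1 FPKM in every library, and the leukocyte gene Ptprc and the macrophage gene Adgre1 were close to 0, with control means of 0.00305 and 0.00578 FPKM and knockout means of 0.00100 and 0.0113 FPKM. The macrophage markers summed to between 13.3 and 16.5 FPKM in control and between 8.72 and 12.4 FPKM in knockout libraries, mostly Cd14 and Cd68. Of the endothelial markers 6 of 7 listed, and of the T and NK lymphocyte markers 3 of 3, were under 1 FPKM in every library. The 4 fibroblast markers summed to between 11.4 and 12.01 FPKM in control and between 17.8 and 18.3 FPKM in knockout libraries, with Pdgfra as the main one. Only 2 of them were tested, and 1 was higher and 1 lower in knockout cells (limma, adjusted p under 0.05). Of all genes tested 35.6% were called, and the median log2 change of these 2 markers was -0.11. The part of these markers in the results below was not tested, and in bulk RNA fewer cells that express a gene and less RNA per cell cannot be told apart.

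Axl was the dominant TAM receptor transcript and rose in the knockout cells; Tyro3 fell, Mertk did not pass the test, and the ligand gene Pros1 rose most. Of the 4 genes 3 were called at an adjusted p under 0.05, where 35.6% of the 11171 genes tested were called (16.9% higher and 18.7% lower in knockout cells). The groups did not overlap for any of the 4 genes, and the same held for 50.5% of all genes tested. Tests were made with limma on log2(FPKM + 1) and adjusted over the 11171 genes by the Benjamini-Hochberg method, and every log2 change below is on that scale, knockout minus control.

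Axl (ENSMUSG00000002602, chromosome 7, 25757273 to 25788705 on the minus strand, GRCm38) measured 152.0, 147 and 159 FPKM in control replicates 1 to 3. In knockout replicates 1 to 3 it measured 260.4, 253 and 237 FPKM. All knockout libraries stood above all control libraries, and any knockout library was between 1.49 and 1.78 times any control library. The means were 153 ± 6.40 and 250.1 ± 11.9 FPKM (SD, n = 3), a ratio of 1.64. The log2 change was 0.71 ± 0.06 (SE; 95% interval 0.57 to 0.85) and the adjusted p 5.47e-05 (limma). Among the 11171 genes tested Axl had the 216th largest rise. It ranked 244th by level in control cells and 146th in knockout cells. Without knockout replicate 3, the library that stood apart, the log2 change was 0.75.

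Tyro3 (ENSMUSG00000027298, chromosome 2, 119797733 to 119818104 on the plus strand) encodes the TAM receptor best known from the nervous system. It measured 7.06, 6.85 and 7.25 FPKM in control and 4.78, 4.59 and 4.30 FPKM in knockout replicates 1 to 3. The lowest control library was above the highest knockout library. The means were 7.05 ± 0.199 and 4.55 ± 0.242 FPKM (SD, n = 3), a ratio of control to knockout of 1.55. The log2 change was -0.54 ± 0.06 (SE; 95% interval -0.68 to -0.40), with adjusted p = 0.000281 by limma, and without knockout replicate 3 it was -0.50. By size it was the 521st largest fall.

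Mertk (ENSMUSG00000014361, chromosome 2, 128698956 to 128802894 on the plus strand) encodes the receptor that macrophages use to take up apoptotic cells. It measured 2.79, 3.15 and 3.15 FPKM in control and 2.65, 2.41 and 2.59 FPKM in knockout replicates 1 to 3. The groups were close, and control replicate 1 lay nearer to knockout replicate 1 than to the other control libraries. The means were 3.03 ± 0.209 and 2.55 ± 0.129 FPKM (SD, n = 3), a ratio of control to knockout of 1.19. The log2 change of -0.18 (SE 0.07, 95% interval -0.34 to -0.02) had an adjusted p of 0.0745 in limma's test across all genes, where the p before adjustment was 0.0305. Mertk therefore did not pass the threshold, and the interval reaches from almost no change to a fall larger than the point value. An antisense gene, Gm14011, and a small nucleolar RNA gene lie within the Mertk locus, and neither shares exon bases with it.

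Pros1 (ENSMUSG00000022912, chromosome 16, 62854307 to 62929346 on the plus strand) encodes protein S, an anticoagulant plasma protein as well as a TAM ligand. It measured 4.29, 4.42 and 4.68 FPKM in control and 11.3, 11.4 and 12.6 FPKM in knockout replicates 1 to 3. Every knockout library was at least 2.41 times every control library. The means were 4.46 ± 0.197 and 11.8 ± 0.708 FPKM (SD, n = 3), a ratio of 2.63. The log2 change was 1.22 ± 0.06 (SE; 95% interval 1.08 to 1.37) and the adjusted p 2.98e-06 (limma); without knockout replicate 3 the log2 change was 1.18. It was the 59th largest rise of all genes tested. Pros1 was also the only one of the 4 genes called when the test was made against a 1.5-fold change (adjusted p = 0.000259, limma), a call made for 2.78% of all genes tested. In level it moved from rank 7695 in control to rank 4415 in knockout cells.

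**Figure D1:**
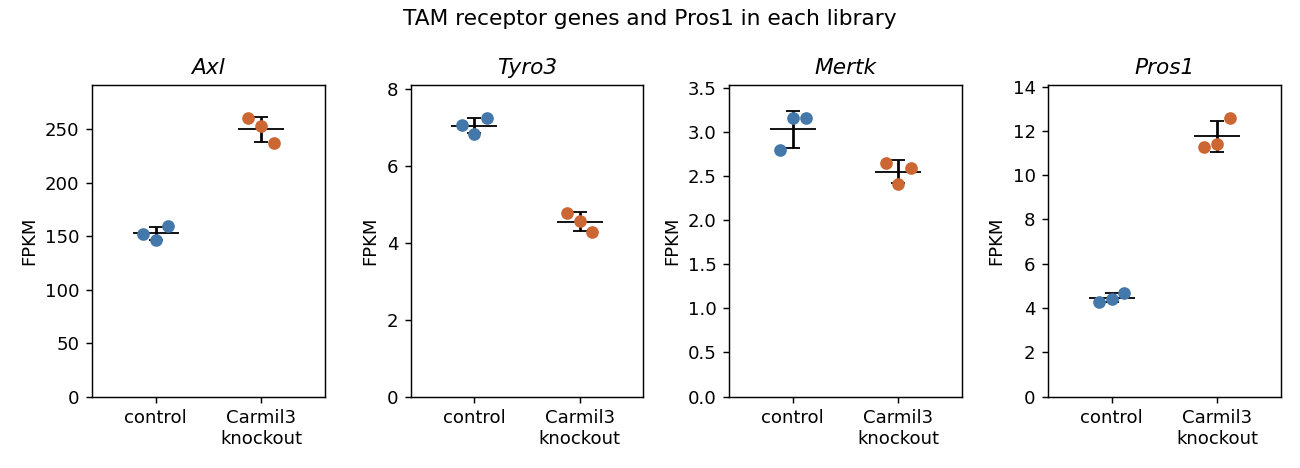
FPKM of Axl, Tyro3, Mertk and Pros1 in each of the 3 control and 3 Carmil3 knockout libraries; points are libraries, horizontal bars means and error bars SD, with a separate axis from 0 for each gene. The groups stand apart for all 4 genes, by the narrowest margin for Mertk (2.65 against 2.79 FPKM).

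The make-up of the receptor transcripts shifted further toward Axl. Axl held 93.9%, 93.6% and 93.9% of the summed FPKM of the 3 receptors in control replicates 1 to 3 and 97.2%, 97.3% and 97.2% in knockout replicates 1 to 3. Tyro3 held 4.27% to 4.38% in control and 1.76% to 1.78% in knockout libraries, and Mertk 1.72% to 2.01% and 0.926% to 1.06%. None of these shares overlapped between the groups. They are ratios within a library, so rescaling a library does not move them. The ratio of Axl to Tyro3 was 21.6 ± 0.307 in control and 54.9 ± 0.382 in knockout cells (SD, n = 3). The summed receptor level rose with Axl, from between 157 and 169.7 FPKM to between 244 and 268 FPKM. Pros1 rose relatively more than Axl: the ratio of Axl to Pros1 was 34.2 ± 1.13 in control and 21.4 ± 2.22 in knockout cells (SD, n = 3). As compositions over chosen genes these ratios were not tested. In order of level, control cells had Axl, Tyro3, Pros1 and Mertk, and knockout cells Axl, Pros1, Tyro3 and Mertk. Neighbours in either order did not overlap in any library of the same group.

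Among genes with values here of the receptor tyrosine kinase family, to which the TAM receptors belong, Axl had the highest level in both groups. Of 27 such genes that passed the filter, the next was Epha2, an ephrin receptor gene, with means of 44.6 ± 4.36 FPKM before and 46.2 ± 2.71 FPKM after the knockout (SD, n = 3). The Axl mean was 3.42 times that of Epha2 in control and 5.41 times in knockout cells, and the ranges over libraries were far apart (146.5 to 159 against 39.7 to 48.1 FPKM in control). After Epha2 came the collagen receptor gene Ddr2 (33.5 FPKM), the pseudokinase gene Ptk7 (33.0 FPKM) and the Wnt co-receptor gene Ryk (31.0 FPKM) in control cells. In the control libraries Ddr2 overlapped with Ptk7, and Ptk7 with Ryk. Axl held 31.8% to 32.4% of the summed FPKM of the listed receptor tyrosine kinases with values in control and 42.8% to 44.0% in knockout libraries. Besides the TAM receptors 55 were listed, and 43 of them had values. Tyro3 was 16th of the 27 in control cells, between Igf1r and Flt1 and without overlap with either, and 19th in knockout cells, where it overlapped with Epha4. Mertk was 21st in control and 20th in knockout cells.

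On the log2(FPKM + 1) scale the change of Axl was the second largest rise among these 27 genes. By the ratio of mean FPKM other genes exceeded it, with 1.64 for Axl against 1.75 for Pdgfra, 1.74 for Epha4, 1.73 for Fgfr2 and 1.67 for Flt1. The PDGF receptor gene Pdgfra rose from 10.1 ± 0.135 to 17.6 ± 0.272 FPKM (log2 change 0.75). Of the 24 tested receptor tyrosine kinase genes other than the TAM genes, 7 rose and 7 fell (58.3% called, against 35.6% of all genes). Their median log2 change was 0.12, where the median of all genes tested was -0.01. Without knockout replicate 3 the number that rose was 11. Besides Pdgfra the VEGF receptor gene Flt1 (log2 change 0.65) and Epha4 (0.62) rose. The falls were larger: Pdgfrb, the other PDGF receptor gene, had a log2 change of -1.78, the FGF receptor gene Fgfr1 -1.30 and Epha1 -1.12. Fgfr2 measured 12.4 ± 0.390 and 21.4 ± 6.77 FPKM (SD, n = 3), and its knockout libraries were at 26.1, 24.6 and 13.7 FPKM; its adjusted p was 0.0634 by limma and 4.67e-05 without knockout replicate 3. Fgfr2 falls outside the rule for named genes and was chosen after its values were seen.

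**Figure D2:**
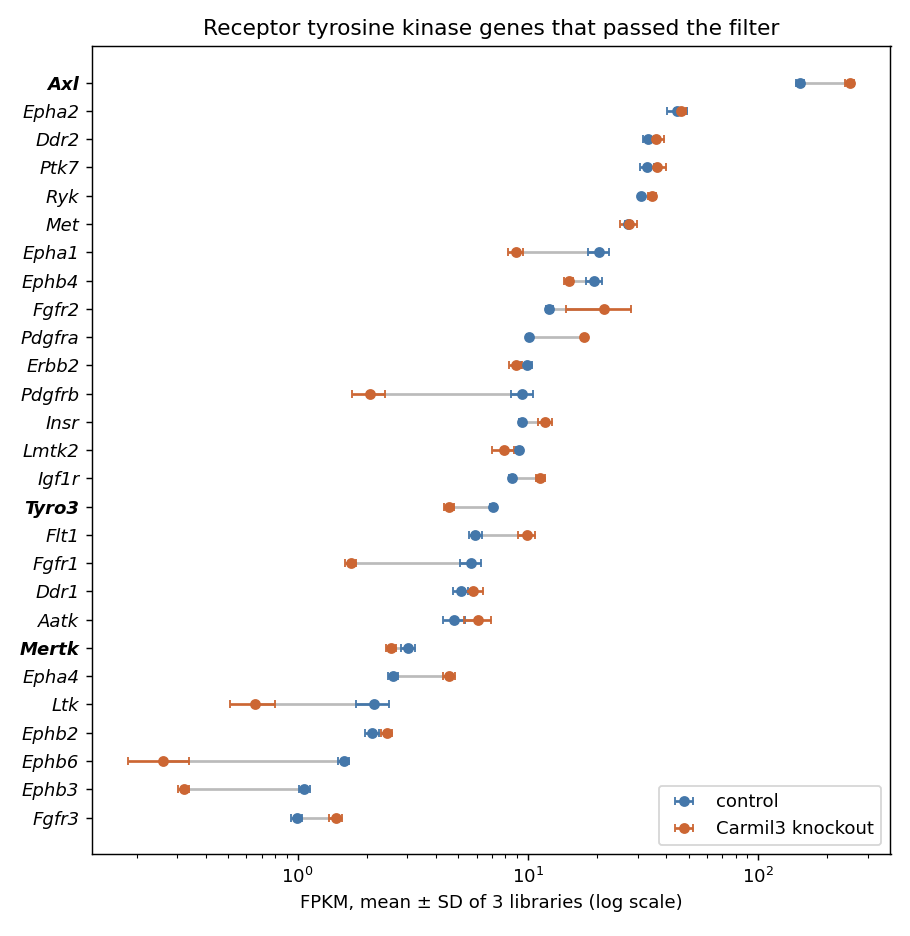
Mean FPKM ± SD over 3 libraries (log scale) of the 27 receptor tyrosine kinase genes that passed the filter, in control and Carmil3 knockout cells, ordered by control level; the TAM receptors are in bold. Axl lies to the right of every other gene in both groups, with means of 153 and 250.1 FPKM.

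The wider pathway was read from 9 lists that cover ligand maturation, receptor shedding, phosphatidylserine exposure, engulfment, signalling, immune regulation, upstream factors, receptor silencing and other receptor tyrosine kinases. Of 134 distinct genes tested 38 rose and 32 fell, which is 52.2% called against 35.6% of all genes, with a median log2 change of 0.01. The lists were written with earlier results of these data known, so this share is a description. By list the share called was 33.3% for ligand maturation, 40.5% for adaptors and kinases, 44.4% for phosphatidylserine exposure and between 53.3% and 75.0% for the other 6 lists. The first 3 of these shares are near that of all genes, and the counts of those lists are given without reading a result about the list from them.

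Ligand maturation depends on gamma-carboxylation, and its enzyme gene Ggcx rose from 3.48 ± 0.191 to 5.04 ± 0.391 FPKM (SD, n = 3; log2 change 0.43). Nqo1, which encodes a quinone reductase that can act on vitamin K, fell from 24.02 ± 1.62 to 12.2 ± 1.07 FPKM (log2 change -0.93). The other 4 of 6 tested genes were not called (33.3% of the list called, against 35.6% of all genes). Among them the vitamin K reductase paralogue Vkorc1l1 measured 16.9 and 16.2 FPKM, while Vkorc1 was below the filter with means of 0.0647 and 0.238 FPKM in control and knockout cells. In 8 other settings, both rescalings, centring on neighbouring genes and leaving out control replicate 2 or knockout replicate 1 among them, 2 genes of this list fell. With a filter of 5 FPKM none rose, because that filter removed Ggcx.

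Axl is cut from the cell surface by the proteases ADAM10 and ADAM17, and the stub is processed by gamma-secretase. In that list 6 of 12 tested genes fell and 1 rose (58.3% called, against 35.6% of all genes), with a median log2 change of -0.16. Adam10 fell from 41.0 ± 2.01 to 35.9 ± 0.878 FPKM (log2 change -0.19; adjusted p = 0.0282, limma) and Adam17 measured 21.4 and 20.5 FPKM (adjusted p = 0.429, limma). The rhomboid-like genes Rhbdf1 and Rhbdf2, whose products carry ADAM17 to the surface, had log2 changes of -0.35 and -0.34; centred on its neighbours Rhbdf1 was not called (-0.26, adjusted p = 0.0788, limma). The gamma-secretase genes Psen2 (-0.44) and Ncstn (-0.20) fell, and Psenen and Aph1a were not called. After centring on neighbouring genes 2 genes of the list rose and 4 fell. The gene that rose was Timp1, a metalloprotease inhibitor, from 72.5 ± 3.98 to 105.3 ± 8.07 FPKM. Adam10 and Ncstn were named after their values were seen, and their calls did not hold throughout. With 1 library left out, Adam10 was lost in 4 of 6 fits (limma's adjusted p up to 0.103) and Ncstn without control replicate 1 or knockout replicate 2 (0.0656 and 0.0555). Centred on its neighbours, Ncstn had a log2 change of -0.10 and an adjusted p of 0.149 (limma).

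Of the genes that set how much phosphatidylserine a cell displays, 9 were tested; 4 were higher and none lower (44.4% called, against 35.6% of all genes), with a median log2 change of 0.01. In 5 other settings (voom on recovered reads, no filter, a filter of 5 FPKM, the replicate block, and knockout replicate 2 left out) 1 of its genes fell. The genes that rose were the scramblase-family genes Plscr1 (log2 change 0.47) and Plscr3 (0.19) and Bsg (0.40) and Nptn (0.19), whose products are partners of the scramblase XKR8. The calls of Nptn and Plscr3 were weak: each was lost in 4 of the 6 fits with 1 library left out, with limma's adjusted p up to 0.0865 for Nptn and 0.0990 for Plscr3. Leaving out control replicate 1, control replicate 2 or knockout replicate 1 brought the rises to 2. The scramblase genes Ano6 and Xkr8 were not called, with means of 31.5 and 31.7 FPKM for Ano6 and of 1.16 and 1.09 FPKM for Xkr8 in control and knockout cells, nor was the flippase gene Atp11a.

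Other engulfment genes moved in both directions, with 3 rises and 2 falls among 8 tested (62.5% called, against 35.6% of all genes). Their median log2 change was -0.15. Mfge8, which encodes a bridging protein between phosphatidylserine and integrins, rose from 53.6 ± 2.997 to 81.5 ± 3.33 FPKM (log2 change 0.60). Of the integrin beta subunits that it binds, Itgb3 rose (log2 change 0.63) and Itgb5 fell from 15.6 ± 1.35 to 5.08 ± 0.156 FPKM (log2 change -1.44). Cd47, which encodes a surface protein that inhibits phagocytosis, rose from 37.2 ± 1.01 to 59.7 ± 0.613 FPKM (log2 change 0.67), and Calr, which encodes calreticulin, an uptake signal when it is on the surface, fell (-0.41). Of the 14 genes of this list in the table, 6 were below the filter, among them the phagocyte receptor genes Stab1, Stab2, Cd36 and Megf10.

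Downstream of the receptors, 4 of 37 tested adaptor and kinase genes rose and 11 fell (40.5% called, against 35.6% of all genes), and the median log2 change was -0.04. The phospholipase gene Plcg2 fell from 15.8 ± 0.562 to 7.85 ± 0.412 FPKM (log2 change -0.93). The phosphatidylinositol 3-kinase subunit genes Pik3r2 (-0.74) and Pik3cb (-0.61) fell as well, and Pik3r1 and Pik3ca were not called. The rises were smaller: the kinase gene Mapk3 (log2 change 0.42), the adaptor genes Nck2 (0.36) and Shc1 (0.28) and Map2k1 (0.22). Map2k1 was not called in 3 of the 6 fits with 1 library left out, those without control replicate 1 or 2 or knockout replicate 1 (limma's adjusted p between 0.0565 and 0.0770). Grb2, which encodes the adaptor that binds activated Axl, measured 36.1 ± 1.37 and 37.8 ± 1.70 FPKM (SD, n = 3; adjusted p = 0.402, limma), and Akt1 129 ± 8.89 and 114 ± 4.08 FPKM (adjusted p = 0.0682, limma).

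In immune cells TAM receptors act with the type I interferon receptor to induce SOCS proteins, which damp cytokine signalling. In that list 6 of 11 tested genes rose and none fell (54.5% called, against 35.6% of all genes), and the median log2 change was 0.23. Socs3 rose from 9.09 ± 0.834 to 18.5 ± 0.577 FPKM (log2 change 0.95) and Socs1 from 2.14 ± 0.419 to 3.46 ± 0.267 FPKM (0.51). Nfkbia, which encodes the inhibitor of NF-kB, rose from 16.6 ± 0.920 to 48.6 ± 2.63 FPKM (1.49). The receptor genes Ifnar1 (0.23) and Ifnar2 (0.50) and Stat3 (0.39) were higher by limma too. Ifnar1 was lost in 5 of the 6 fits with 1 library left out, all but that without knockout replicate 3, with adjusted p up to 0.123 (limma). The genes Jak1, Tyk2, Stat2, Twist1 and Irak4 were not called.

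Among transcription factors reported to act on Axl, 8 of 15 tested genes rose and none fell (53.3% called, against 35.6% of all genes). The median log2 change was 0.16, and without knockout replicate 3, 1 gene fell. The AP-1 genes Fosl1 and Jun rose most, from 54.4 ± 3.34 to 93.7 ± 0.846 FPKM (log2 change 0.78) and from 17.8 ± 1.65 to 28.9 ± 0.434 FPKM (0.67). Wwtr1, which encodes TAZ, rose from 38.5 ± 0.284 to 52.3 ± 0.410 FPKM (0.43). The Sp1, Sp3 and Hif1a genes were not called, and Mzf1 and Zeb1 were below the filter. Zeb2 rose from 5.11 ± 0.168 to 7.02 ± 0.424 FPKM (0.39). Of the TEAD genes, Tead2 rose from 19.0 ± 0.916 to 25.9 ± 1.19 FPKM (0.43), and Tead1, Tead3 and Tead4 were not called. Among negative regulators of receptor tyrosine kinases 4 of 12 tested genes rose and 5 fell (75.0% called, against 35.6% of all genes). Their median log2 change was -0.16. Both without knockout replicate 2 and after centring on neighbouring genes, 3 fell. The phosphatase gene Ptprj (log2 change 0.51), Lrig1 (0.47) and the EGF receptor inhibitor gene Errfi1 (0.42) rose, and Spry4 (-0.72), the phosphatase gene Ptprk (-0.46) and Sh3kbp1 (-0.27) fell. Centred on its neighbours Sh3kbp1 was not called (-0.11, adjusted p = 0.222, limma). The ubiquitin ligase genes Cbl and Cblb were not called.

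**Figure D3:**
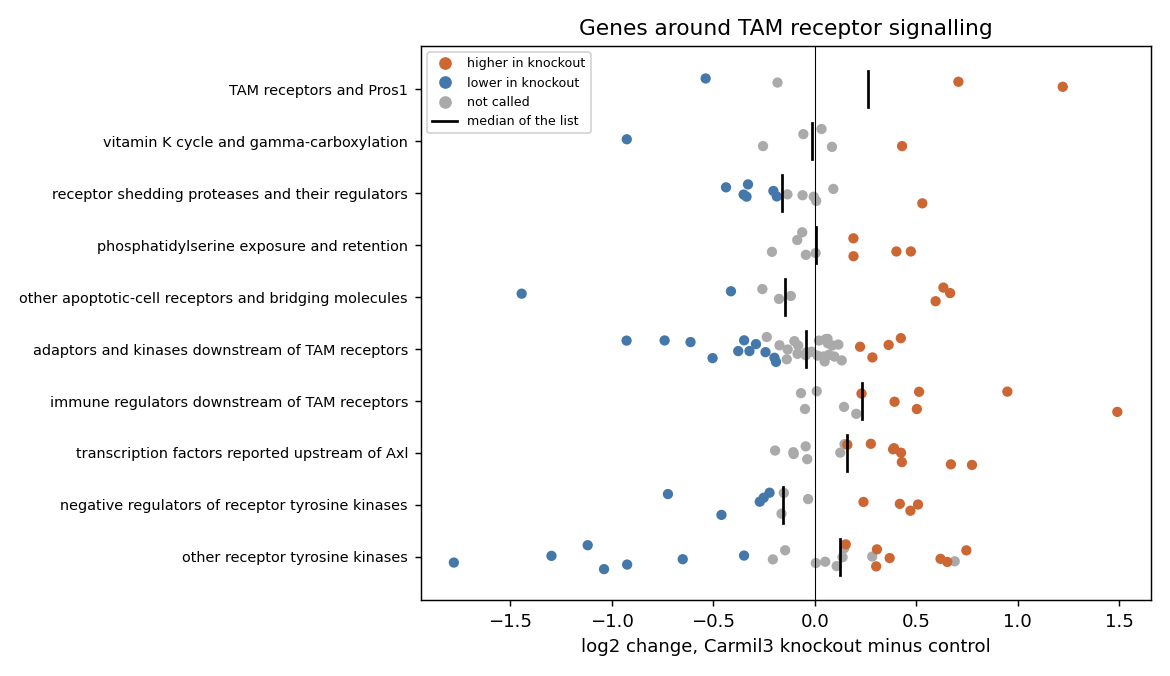
Log2 change (knockout minus control) of each tested gene in the TAM set and in the 9 lists around it; points are genes coloured by call at an adjusted p under 0.05, vertical bars list medians. The immune regulators show 6 rises among 11 genes and the upstream transcription factors 8 among 15, with no falls in either; 35.6% of all genes tested were called.

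The surroundings of the genes on their chromosomes differed. Of the 40 tested genes nearest to Axl, 20 on each side, 19 were higher and 1 was lower in knockout cells. Among all genes tested 16.9% were higher and 18.7% lower. The median log2 change of these 40 genes was 0.22, where the median of chromosome 7 was 0.13. Axl exceeded 38 of these 40 genes. The next tested gene toward lower coordinates was Hnrnpul1, an RNA-binding protein gene that rose (log2 change 0.26), 36.1 kb away by annotated start. Toward higher coordinates it was Egln2, an oxygen-sensing hydroxylase gene that was not called (0.10), 1401 kb away. Hnrnpul1 was no longer called once centred on its own neighbours (adjusted p = 0.686, limma) and without control replicate 1 (adjusted p = 0.0515, limma). Centred on its neighbours, the log2 change of Axl was 0.49, with an adjusted p of 0.000187 (limma). Whether the shift of the whole stretch has a part in the rise of Axl was not tested beyond this centring.

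Around Pros1 the 40 neighbours had a median log2 change of 0.03, with 8 higher and 6 lower, and none rose as much as Pros1. Tested genes are sparse there: these 40 reach to 24.5 Mb from Pros1, against 2.15 Mb for those of Axl. Of all genes tested 35.6% were called in either direction, and the shares of neighbours called around Pros1, Tyro3 and Mertk are near that. No result is read from those counts. The next tested genes on either side of Pros1, Arl13b (60.6 kb away by annotated start) and 4930453N24Rik (1897 kb away), were not called (log2 changes of 0.04 and -0.10). Centred on neighbours, Pros1 had a log2 change of 1.18. Around Tyro3 the median was -0.04, with 6 genes higher and 9 lower, and 3 of the 40 fell further than Tyro3. One of these is Ltk, another receptor tyrosine kinase gene, with a start 46.4 kb from that of Tyro3, which fell from 2.14 to 0.654 FPKM (log2 change -0.92); the genes next to Tyro3, Rpap1 and Mga, were not called. Centred on neighbours, Tyro3 had a log2 change of -0.48. Around Mertk the median was -0.12, with 4 higher and 11 lower, and the neighbour Anapc1, which encodes a subunit of the anaphase-promoting complex, fell (log2 change -0.38) while Tmem87b was not called. Centred on neighbours, Mertk had a log2 change of -0.09 with an adjusted p of 0.414 (limma).

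**Figure D4:**
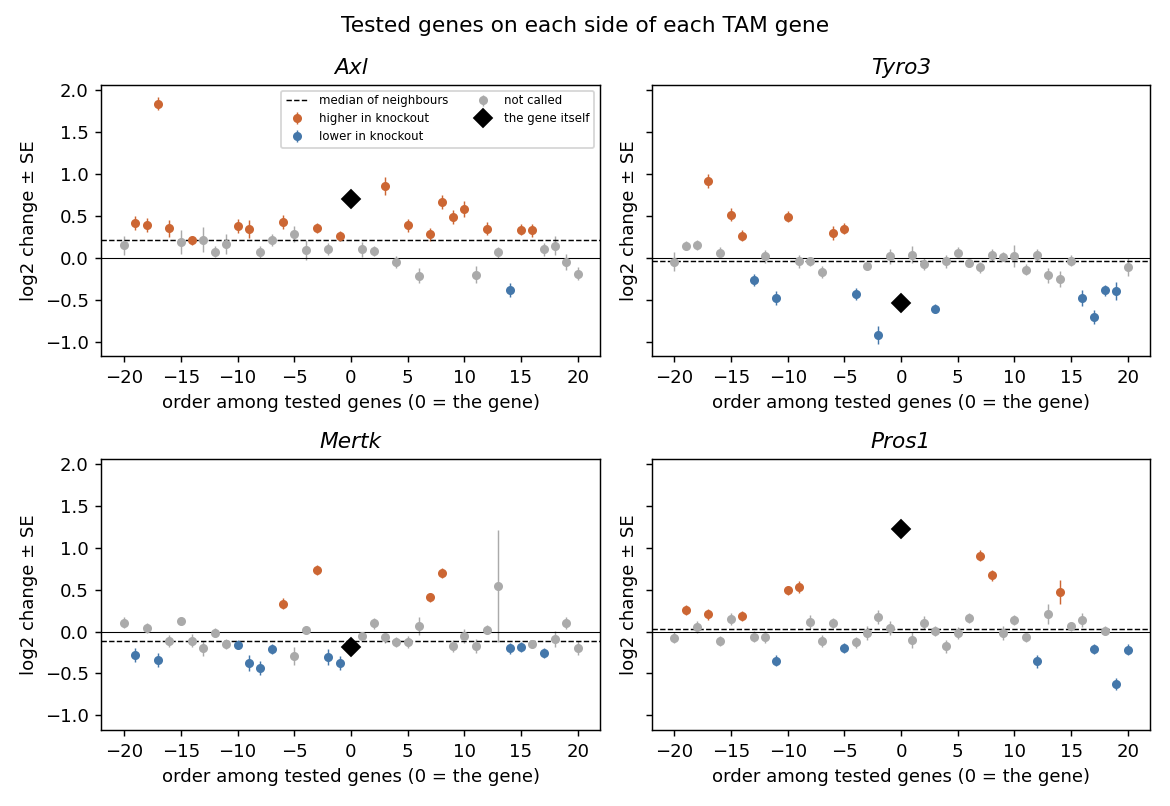
Log2 change ± SE of the 20 tested genes on each side of Axl, Tyro3, Mertk and Pros1, in the order of their starts on the chromosome; diamonds are the genes themselves, dashed lines the medians of the neighbours. The dashed line lies at 0.22 for Axl and within 0.12 of 0 for the other genes.

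The genes whose profile over the 6 libraries was most like that of each TAM gene were read by Pearson's r of log2(FPKM + 1) among genes that averaged 5 FPKM or more. With 2 separated groups of 3 libraries a high r mainly says that a gene differed between the groups, and it is given as a description. For Axl these were Ltbp1, a TGF-beta binding protein gene, Tns4, a tensin gene, and Lrig1 (r between 0.9991 and 0.9994), and 484 of 7317 genes had an r above 0.95. For Pros1 they were Tmem176a, Cdc42ep3 and the carbonic anhydrase gene Car13, with 535 genes above 0.95. For Tyro3 they were the keratin gene Krt80, the collagen gene Col6a1 and Afg3l1, with 574 genes above 0.95. For Mertk they were Tmem168, Cntrob and Rfc3, and 9 genes were above 0.95. Afg3l1 was no longer called once centred on its neighbours (adjusted p = 0.396, limma).

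The changes of the TAM genes were recomputed under 17 other settings. The log2 change of Axl lay between 0.49 and 0.75, that of Pros1 between 0.82 and 1.39, that of Tyro3 between -0.63 and -0.34 and that of Mertk between -0.25 and -0.09. No setting turned a direction. Axl and Tyro3 passed the threshold in every setting but the test against a 1.5-fold change, where limma's adjusted p was 0.957 and 1, and Mertk passed in none. Pros1 passed in all 17.

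**Figure D5:**
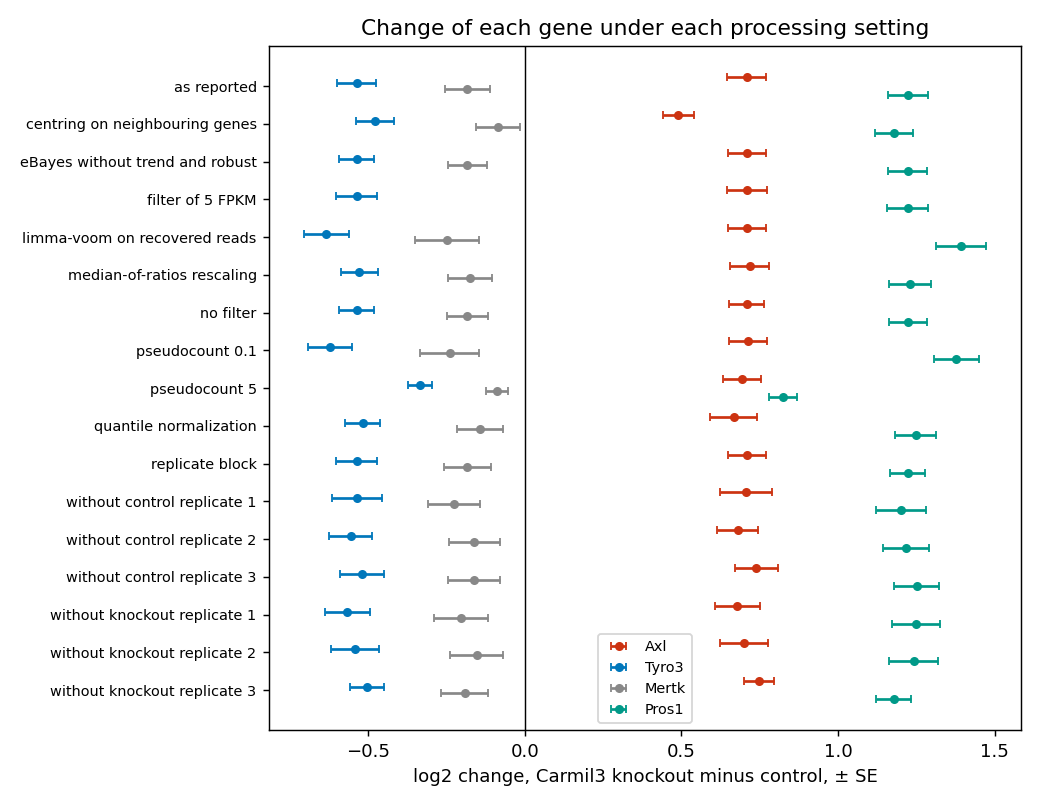
Log2 change ± SE (knockout minus control) of Axl, Tyro3, Mertk and Pros1 as reported and under each other setting except the test against a 1.5-fold change, which has the same log2 changes; Mertk is absent with the filter of 5 FPKM. Each gene keeps its side of 0, and Axl moves most with centring on neighbouring genes, to 0.49.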

How the data were processed

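FPKM values of 3 control and 3 Carmil3 knockout libraries of 4T1 cells were analysed; groups and replicate numbers are those of the titles. The authors deposited these FPKM values in 1 table of 23644 genes, and the unit was read from the values. The submitters' processing notes name CASAVA, TopHat, TopHat2 2.0.12, Bowtie, Bowtie2, HTSeq 0.6.0 and the build mm10. Tool roles, the annotation and any use of strand in counting were not given in the sources used here. Gene symbols (23577 genes), positions and exon lengths were taken from GENCODE M21 on GRCm38, the assembly that mm10 names, and promoters from RefSeq (GRCm38.p6).

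Genes with at least 1 FPKM in 3 or more of the 6 libraries (11171) were fitted as log2(FPKM + 1) by limma 3.58.1 (R 4.3.3), with a variance trend and robust moderation, and called at a Benjamini-Hochberg adjusted p under 0.05. The pseudocount of 1 understates changes of low genes such as Mertk. Reads were recovered as FPKM times exon length divided by each library's step: of values up to 500 reads, 88.4% to 88.6% were whole within 0.02 of a read. No pair of libraries within a group was alike within sampling noise, with a chi-square of 3.02 to 19.0 per degree of freedom over genes with 200 or more reads in the pair. The fit was first tested on simulated data.

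The 5 genes and the 16 gene lists, 5 of them cell type markers, were chosen with earlier results of these data known. The rule for named genes took the TAM genes and, per pathway list and direction, up to 3 called genes with the largest change and a mean of at least 2 FPKM in the higher group. It also took the 3 genes most like each TAM gene, the nearest tested gene on each side and the 5 highest receptor tyrosine kinases of control cells. Other genes were named after their values were seen: markers, list members given as not called or below the filter, Ltk, and called members beyond the rule such as Plscr3, Map2k1, Ifnar1, Ifnar2, Stat3, Tead2 and Zeb2. Some list members are counted but their values are not reported here. The alternatives were pseudocounts of 0.1 and 5, a filter of 5 FPKM or none, rescaling by the median of ratios and by quantiles, moderation without trend and robust, a replicate block, a test against a 1.5-fold change, centring each gene on the 20 tested genes on each side, and leaving out each library with the gene set kept. Limma-voom on recovered reads was added after seeing the data. Figures were drawn with matplotlib 3.10.9 (Python 3.11.15, numpy 2.4.6, pandas 2.3.3).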

Additional observations from a re-analysis of the deposited data

How the results depend on the processing

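Axl, Tyro3 and Pros1 kept direction and call under all 17 alternatives, except that against a 1.5-fold change Axl (log2 change 0.71, limma adjusted p = 0.957) and Tyro3 (-0.54, adjusted p = 1) were not called. Mertk was not called under any of the 16 that gave it a value, with adjusted p between 0.0561 and 0.414 apart from the 1.5-fold test; the filter of 5 FPKM removed it. The 1.5-fold test called 118 genes higher and 193 lower of all genes, and 2 higher and 7 lower of the pathway genes. Leaving out 1 library gave 1182 to 2041 genes higher and 1358 to 2218 lower, with the lowest counts without control replicate 1.

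Whether replicate numbers pair the libraries is not settled: deviations of same-numbered libraries correlated at -0.06, 0.15 and 0.10. Libraries numbered 2 and 3 correlated best with their own number, and those numbered 1 did not. Correlations this weak, from 3 libraries a group, cannot exclude a shared culture or day. With the number as a block, limma's adjusted p was 0.000656 for Axl (log2 change 0.71), 0.00219 for Tyro3, 7.38e-05 for Pros1 and 0.109 for Mertk, and 1900 genes were higher and 2127 lower.

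Genes near 0 that were not called changed sign. After centring on neighbours the log2 change was -0.027 for Arl13b, -0.14 for Egln2, -0.037 for Epha2, 0.015 for Rfc3 and 0.056 for Tmem87b. With 1 library left out it ran from -0.020 to 0.12 for Arl13b, from -0.027 to 0.11 for Epha2, from -0.029 to 0.15 for Mga and from -0.050 to 0.11 for Rpap1. Of 60 other named genes that were called, with Tead2 and Zeb2 not counted, 46 were lost in the 1.5-fold test. In another alternative 12 were lost (Adam10, Afg3l1, Cd14, Hnrnpul1, Ifnar1, Map2k1, Ncstn, Nptn, Plscr3, Rhbdf1, Ryk and Sh3kbp1). The cause of these changes was not tested, beyond the stricter question that the 1.5-fold test puts.

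Limits: 193 to 256 reads stand behind each Mertk value, no level of protein, shed receptor or phosphorylation was measured, and 3 libraries a group do not allow an exact permutation p under 0.1 for a single gene.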
